A study of Mus musculus with 7 samples.

Results

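Crossovers join homologous chromosomes so that they can be pulled apart at the first meiotic division, and a dedicated set of proteins decides which recombination intermediates become crossovers. The genes described are 8 listed members of that set, chosen by name as ZMM-type and MutL crossover genes: *Msh4*, *Msh5*, *Mlh3*, *Rnf212*, *Hfm1*, *Tex11*, *Ccnb1ip1* and *Cntd1*. They are 8 of the 21928 genes that the transcript tables cover, and all 8 were among the 13630 genes tested. Their RNA was measured in 4 wild-type and 3 *Meioc*-null libraries, each from 1.5 testes of 1 C57BL/6N pup. *Meioc* encodes a germ cell protein that partners YTHDC2 and RBM46, which bind RNA, and the null pups carried the Meioc tm1.1Dpc allele. All pups of both groups received WIN18446, which blocks the synthesis of retinoic acid, at 0.1 mg/g from P2 to P8, and a dose of 0.0125 mg/g retinoic acid on P9. Their testes were taken 6.75 days later, when germ cells that had responded to retinoic acid together were at the preleptotene stage, before meiotic prophase. The libraries are therefore whole testes, and in such bulk samples fewer cells of a type and less RNA per cell cannot be told apart.

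Recombination starts with programmed DNA breaks, whose ends invade the homolog, and most of the resulting joints are undone by helicases. MSH4 and MSH5 form MutSγ, a clamp that sits on joined DNA and stabilizes it, while MLH3 is part of MutLγ, the nuclease that later cuts the joints into crossovers. HFM1 is a helicase and TEX11 a scaffold protein of the ZMM group, named after its yeast members. RNF212 and CCNB1IP1 (also called HEI10) are RING proteins, of which the first stabilizes and the second turns over ZMM complexes, and CNTD1 is a cyclin-like protein needed for sites to mature into crossovers. In the testis these proteins act on the chromosomes of zygotene and pachytene spermatocytes, which come after the stage collected here.

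The 8 genes lie apart in the genome, on GRCm38. *Msh4* is at chr3:153857149-153906138, *Msh5* at chr17:35028605-35046745 and *Mlh3* at chr12:85234520-85270599. *Rnf212*, at chr5:108729290-108774982, and *Hfm1*, at chr5:106840192-106926321, share a chromosome. *Tex11* is on the X chromosome at chrX:100838648-101059667, *Ccnb1ip1* at chr14:50789248-50807732 and *Cntd1* at chr11:101279012-101296317. All are protein-coding, and all but *Cntd1* lie on the minus strand. The *Cntd1* gene overlaps 2 other genes of the tables, *Coa3* and *Becn1*, on the opposite strand. The reads were counted by strand, which keeps such pairs apart.

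Promoters are shown as a description of sequence, for genes called higher in wild type and for *Mlh3*, which was not called. The RefSeq table for GRCm38.p6 covers 250 bases before and 50 after a start site and matched 7 of the 8 genes, all but *Tex11*. They were searched on both strands for CNCCTCAG, the motif of the meiotic activators STRA8 and MEIOSIN, for GCGGGA, a core of E2F sites, and for the E-box CACGTG, bound by MGA with MAX. Capitals mark the matches in the 4 promoters printed 5′ to 3′, those of *Hfm1* (chr5:106925841-106926140, minus strand), *Msh5* (chr17:35046573-35046872, minus strand), *Cntd1* (chr11:101278953-101279252, plus strand) and *Mlh3* (chr12:85270550-85270849, minus strand).
Hfm1: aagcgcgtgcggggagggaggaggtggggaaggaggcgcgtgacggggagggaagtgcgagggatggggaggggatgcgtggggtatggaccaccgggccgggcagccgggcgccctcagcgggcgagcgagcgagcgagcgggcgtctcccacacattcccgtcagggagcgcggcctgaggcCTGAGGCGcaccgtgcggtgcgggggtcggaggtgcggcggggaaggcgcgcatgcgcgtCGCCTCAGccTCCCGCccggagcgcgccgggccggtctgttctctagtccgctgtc
Msh5: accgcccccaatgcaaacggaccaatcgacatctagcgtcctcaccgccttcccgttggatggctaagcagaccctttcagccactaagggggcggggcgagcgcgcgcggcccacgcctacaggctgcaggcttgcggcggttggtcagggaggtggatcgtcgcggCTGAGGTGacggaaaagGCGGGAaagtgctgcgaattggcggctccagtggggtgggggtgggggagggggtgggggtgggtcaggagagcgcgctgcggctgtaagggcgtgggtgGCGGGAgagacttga
Cntd1: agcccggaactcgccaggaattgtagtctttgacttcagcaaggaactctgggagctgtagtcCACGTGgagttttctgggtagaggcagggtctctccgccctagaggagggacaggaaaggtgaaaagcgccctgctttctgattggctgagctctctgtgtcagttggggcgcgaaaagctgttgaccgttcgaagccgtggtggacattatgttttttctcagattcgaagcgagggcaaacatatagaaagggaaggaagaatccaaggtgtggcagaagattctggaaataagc
Mlh3: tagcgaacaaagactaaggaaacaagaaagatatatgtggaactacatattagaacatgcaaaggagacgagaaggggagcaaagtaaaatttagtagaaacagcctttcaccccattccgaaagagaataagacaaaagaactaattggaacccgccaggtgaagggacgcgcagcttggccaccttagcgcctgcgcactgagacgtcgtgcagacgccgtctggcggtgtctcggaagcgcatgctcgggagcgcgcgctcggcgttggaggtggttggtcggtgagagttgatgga

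The STRA8 and MEIOSIN motif was found in 2 of the 7 promoters, against 9.12% of the 27025 mouse genes in the table. It stood at 2 places in the *Hfm1* promoter, starting 66 and 6 bases before the start site, and once in that of *Msh5*, starting 82 bases before it. The E2F core was found in 4 of the 7, those of *Hfm1*, *Rnf212*, *Ccnb1ip1* and *Msh5*, against 22.05% of all genes, and the E-box in 2 of the 7, *Rnf212* and *Cntd1*, against 8.09%. The windows at *Msh4* and at both RefSeq start sites of *Mlh3* held none of the 3. The RefSeq start site lay 1247 bases inside the GENCODE gene for *Msh4* and 12004 bases inside it for *Ccnb1ip1*. Both are the start of a transcript in the tables, *Msh4*-205 and *Ccnb1ip1*-201, and starts further upstream were not searched. The matches describe the sequence only and do not show that a factor binds there.

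The libraries held 12537852 to 20552702 estimated counts. *Meioc* itself was counted at 468, 660, 664 and 720 CPM (counts scaled to a common library size by TMM) in wild type and at 400, 300 and 413 CPM in the null. The libraries are thus ordered as labeled (log2 fold change 0.76 ± 0.16 SE, adjusted p = 0.0207 by edgeR), and much *Meioc* RNA was still counted from the null allele. A positive log2 fold change means more RNA in wild type. Each adjusted p comes from the quasi-likelihood test of edgeR, corrected over all 13630 genes by the Benjamini-Hochberg method, and a gene was called when it was under 0.05. By the mean squared difference of gene counts, in units of counting noise, wild-type replicate 1 was nearer to *Meioc*-null replicate 1 (10.65) than to any other wild-type library (13.88 to 23.39). *Meioc*-null replicate 1 was likewise nearer to that library than to the other null libraries (24.84 and 14.03). This measure grows with depth, and wild-type replicate 1 had the fewest counts (12537852), which lowers its distances. By the median Pearson r over genes, wild-type replicate 1 was nearer to the other wild-type libraries (0.981) than to the null (0.972). *Meioc*-null replicate 1 was nearer to the other null libraries (0.981) than to wild type (0.974). Wild-type replicate 1 was the lowest wild-type library for 5 of the 8 genes and the highest for 1, *Mlh3*. Results are therefore also given without it. Where it is the lowest wild-type library its removal raises the difference, and where it is the highest it lowers it, so those directions follow from the choice.

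Transcripts of 7 of the 8 crossover genes were higher in wild type than in the *Meioc*-null testes, by 1.53-fold (*Rnf212*) to 2.77-fold (*Cntd1*), and *Mlh3* was not called. Of all tested genes, 7.77% (1059) were called in that direction and 3.33% (454) in the other. These calls depended on the libraries in the fit: of the 8, 2 were called without *Meioc*-null replicate 3, 3 without wild-type replicate 3, and 4 without wild-type replicate 2, wild-type replicate 4 or *Meioc*-null replicate 2. The calls higher in wild type over all genes fell to 113, 237 and 254 to 364 in the same fits. None of the 8 was called lower by edgeR or DESeq2, or had an unadjusted p under 0.05 in that direction. The median log2 fold change of the 8 genes was 0.78, against -0.01 over all tested genes. In each of the 7 called genes every wild-type library was above every null library in CPM, a pattern that 15.4% of tested genes showed in that direction. DESeq2 also called 7 of the 8 higher, where it called 10.7% of tested genes higher. The split of all calls depends on scaling: 810 were higher and 904 lower with library size alone, 361 and 502 with scaling to germ cell markers, and 440 and 2082 on log2(TPM + 1). On log2(TPM + 1) the median of all genes was itself -0.23, and the changes of single genes on that scale are relative to this shift.

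**Figure D1:**
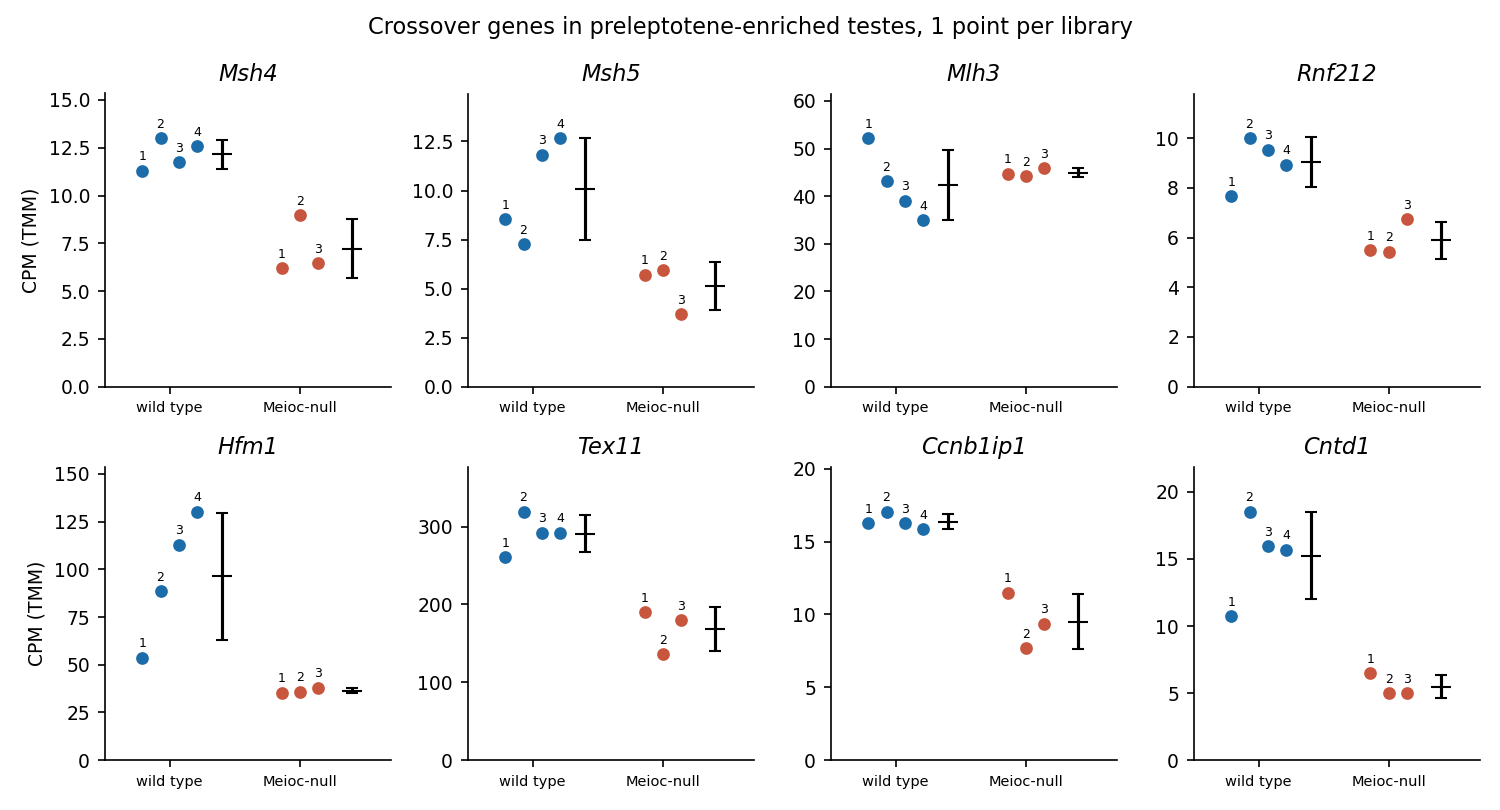
CPM of the 8 crossover genes in each library, with wild type in blue and *Meioc*-null in red, replicate numbers above the points, and the group mean with SD beside them in black. The groups are apart in 7 panels and overlap for *Mlh3*, where wild-type replicate 1 is highest at 52.2 CPM, whereas it is lowest of the wild-type libraries for *Hfm1* at 53.7 CPM.

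The MutSγ genes *Msh4* and *Msh5* were the least abundant of the set per length in wild type, and both were higher in wild type. *Msh4* was counted at 11.3, 13.0, 11.8 and 12.6 CPM in wild-type replicates 1 to 4 and at 6.19, 8.98 and 6.47 CPM in *Meioc*-null replicates 1 to 3. The groups did not overlap, and the means were 12.2 ± 0.768 CPM (SD, n = 4) in wild type and 7.22 ± 1.54 CPM (SD, n = 3). The log2 fold change was 0.76 ± 0.16 (SE; adjusted p = 0.0203, edgeR). *Msh5* was counted at 8.54, 7.27, 11.8 and 12.7 CPM in wild type against 5.71, 5.94 and 3.70 CPM in the null. Its wild-type libraries spread more widely than those of *Msh4*, and wild-type replicate 2 came nearest to the null. The log2 fold change of *Msh5* was 0.99 ± 0.24 (SE; adjusted p = 0.0331, edgeR). Both rest on few reads, with 116 to 249 counts a library for *Msh4* and 68 to 251 for *Msh5*. Each lost its call without any of 4 of the 7 libraries, with adjusted p-values by edgeR of up to 0.078 and 0.108, while the log2 fold change stayed at 0.66 to 0.94 for *Msh4* and at 0.80 to 1.11 for *Msh5*.

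*Mlh3*, the MutLγ subunit that carries the nuclease site, had no detectable change. It was counted at 52.2, 43.1, 39.0 and 34.97 CPM in wild type against 44.7, 44.2 and 45.9 CPM in the null. The 3 null libraries lay close together and inside the wild-type range. The means were 42.3 ± 7.35 CPM (SD, n = 4) in wild type and 44.95 ± 0.877 CPM (SD, n = 3), and the log2 fold change was -0.09 ± 0.13 (SE; adjusted p = 0.661, edgeR). Wild-type replicate 1 set the top of that range: without it the log2 fold change was -0.20 ± 0.10 (SE; adjusted p = 0.181, edgeR), and *Mlh3* was not called under any of 16 alternative settings.

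The helicase and scaffold genes of the ZMM group were the most abundant per length, and both were higher in wild type. *Hfm1* was counted at 53.7, 88.7, 113 and 130 CPM in wild type against 35.5, 35.9 and 38.1 CPM in the null. The null libraries were nearly level, while the wild-type libraries were all above them and spread widely, with replicate 1 lowest. The log2 fold change of *Hfm1* was 1.40 ± 0.25 (SE; adjusted p = 0.0149, edgeR). Without wild-type replicate 1 it was 1.60 ± 0.14 (SE), or 3.03-fold, and the call was lost without *Meioc*-null replicate 2 (adjusted p = 0.0528 by edgeR) or replicate 3 (0.0627). *Tex11* was counted at 260, 319, 292 and 292 CPM in wild type against 190, 136 and 179 CPM in the null. All 4 wild-type libraries lay above the 3 null ones. Its log2 fold change was 0.79 ± 0.12 (SE; adjusted p = 0.0104, edgeR), and it was called with any library left out, at adjusted p-values of up to 0.0433.

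The RING protein genes were also higher in wild type, and so was *Cntd1*. *Ccnb1ip1* was counted at 16.3, 17.1, 16.3 and 15.8 CPM in wild type against 11.5, 7.68 and 9.36 CPM in the null. Its wild-type libraries were the closest to each other of the set, at 16.4 ± 0.502 CPM (SD, n = 4), and wild-type replicate 1 lay among them. The log2 fold change was 0.78 ± 0.14 (SE; adjusted p = 0.0165, edgeR), and the call was lost without any of 3 libraries (adjusted p up to 0.068). *Rnf212* was counted at 7.67, 9.99, 9.53 and 8.93 CPM in wild type against 5.50, 5.43 and 6.75 CPM in the null. The groups came within 1 CPM of each other, between wild-type replicate 1 and *Meioc*-null replicate 3. The log2 fold change of *Rnf212*, 0.61 ± 0.16 (SE; adjusted p = 0.0361, edgeR), was the smallest of the 7, and only leaving out wild-type replicate 1 kept the call, with adjusted p-values of up to 0.102 without any other library. *Cntd1* was counted at 10.7, 18.5, 15.9 and 15.7 CPM in wild type against 6.46, 4.999 and 5.005 CPM in the null. Every wild-type library was above every null library by more than 4 CPM. Its log2 fold change was 1.47 ± 0.20 (SE; adjusted p = 0.0064, edgeR), rose to 1.60 ± 0.16 (SE) without wild-type replicate 1, and passed the test with any library left out and under all 16 alternatives. With all 7 libraries this was the highest of the 8, but *Hfm1* was within its error and above it without wild-type replicate 2 (1.44 against 1.36) or *Meioc*-null replicate 3 (1.44 against 1.40), and both were at 1.60 without wild-type replicate 1.

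**Figure D2:**
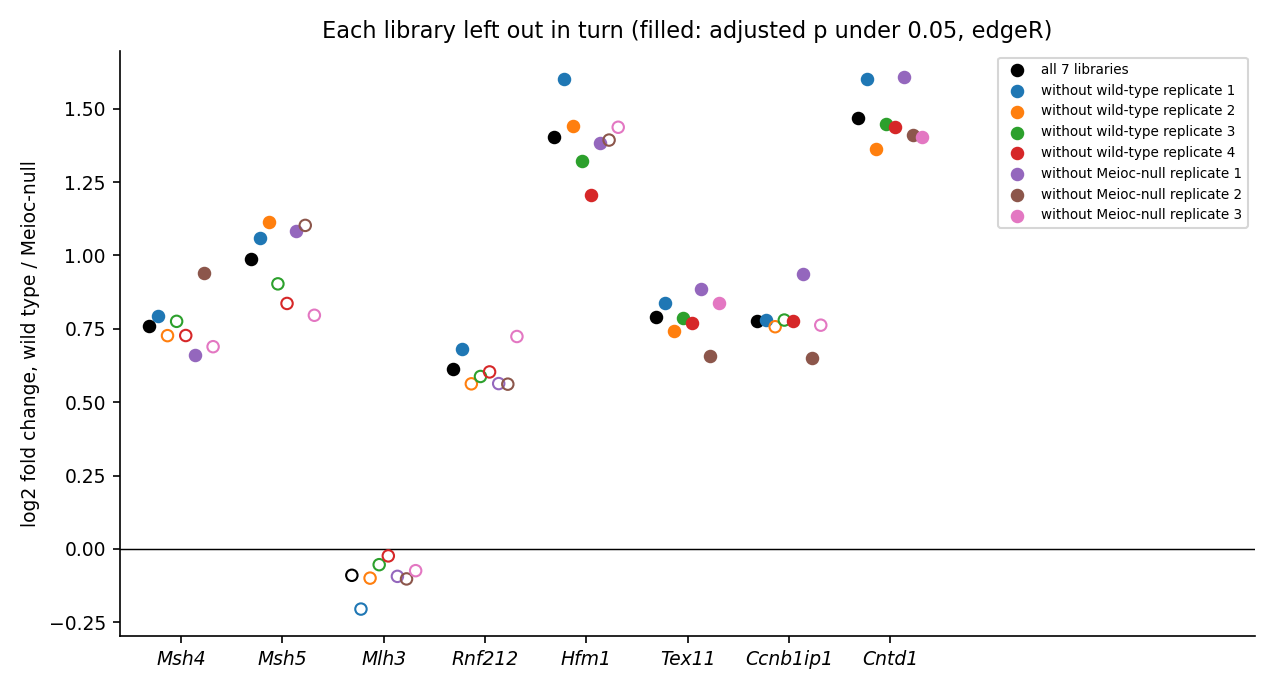
Log2 fold change of each gene with all 7 libraries (black) and with each library left out in turn (colors), filled where the adjusted p of edgeR's test is under 0.05. *Cntd1* and *Tex11* are filled in every fit, *Rnf212* in 2 of its 8, and all points of *Mlh3* are open and below 0.

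Per length, in TPM, the levels of the 8 genes spanned a wide range. *Tex11* was highest in wild type at 214 ± 9.83 TPM (SD, n = 4), followed by *Hfm1* at 46.2 ± 14.3, *Ccnb1ip1* at 23.9 ± 1.54, *Rnf212* at 22.8 ± 1.42, *Mlh3* at 13.4 ± 3.12, *Cntd1* at 10.8 ± 1.78, *Msh4* at 7.98 ± 0.273 and *Msh5* at 4.13 ± 0.973 TPM. Neighbors in that order had separate ranges over the libraries except *Ccnb1ip1* with *Rnf212* and *Mlh3* with *Cntd1*. In the null, *Tex11* was highest at 147 ± 15.2 TPM (SD, n = 3), *Hfm1* followed at 21.2 ± 1.37, and *Rnf212* (17.9 ± 1.93), *Mlh3* (16.7 ± 1.30) and *Ccnb1ip1* (16.6 ± 2.47) were not separated in their ranges. *Msh4* (5.54 ± 1.61) and *Cntd1* (4.64 ± 0.655) overlapped there too, and *Msh5* was again lowest at 2.48 ± 0.718 TPM. *Mlh3* thus ranked below both RING protein genes in wild type and within their range in the null. On this scale *Msh5* overlapped between the groups, since wild-type replicate 2 had 2.93 TPM and *Meioc*-null replicate 2 had 3.12, and with limma on log2(TPM + 1) *Msh4*, *Msh5* and *Rnf212* were not called.

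Ratios of genes within a library do not depend on how libraries are scaled, and 3 were compared to ask whether partners and paralogs moved alike. With 4 libraries against 3 there are 35 splits, and the two-sided exact permutation p was taken as double that of the smaller tail. It cannot go below 0.0571 and so cannot pass 0.05, and it does not tell whether partners moved alike. *Msh4* over *Msh5*, the MutSγ partners, was 2.16, 2.72, 1.63 and 1.58 in wild type and 1.69, 2.37 and 2.82 in the null, in TPM. *Msh4* was thus above *Msh5* in every library, and the groups overlapped. The difference in mean log2 ratio, wild type minus null, was -0.19 (exact permutation p = 0.457, adjusted over the 3 ratios 0.457), and was between -0.39 and -0.02 with single libraries left out, nearest to 0 without *Meioc*-null replicate 3.

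*Rnf212* over *Ccnb1ip1*, the RING protein genes, was 0.816, 1.02, 1.02 and 0.976 in wild type and 0.813, 1.25 and 1.25 in the null. The first replicate of each group was the lowest, and the difference in mean log2 ratio was -0.18 (exact permutation p = 0.40, adjusted 0.457), or -0.39 to -0.08 with single libraries left out. *Mlh3* over the geometric mean of *Pms1* and *Pms2*, its MutL paralogs, was 0.5505, 0.415, 0.360 and 0.332 in wild type and 0.488, 0.577 and 0.528 in the null. Wild-type replicate 1 lay inside the null range and the other 3 wild-type libraries below it. The difference in mean log2 ratio was -0.38 (exact permutation p = 0.171, adjusted 0.457). The paralogs went opposite ways, with edgeR log2 fold changes of 0.65 for *Pms2*, which was called, and -0.14 for *Pms1*, which was not. The ratio therefore mixes their changes with that of *Mlh3*.

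**Figure D3:**
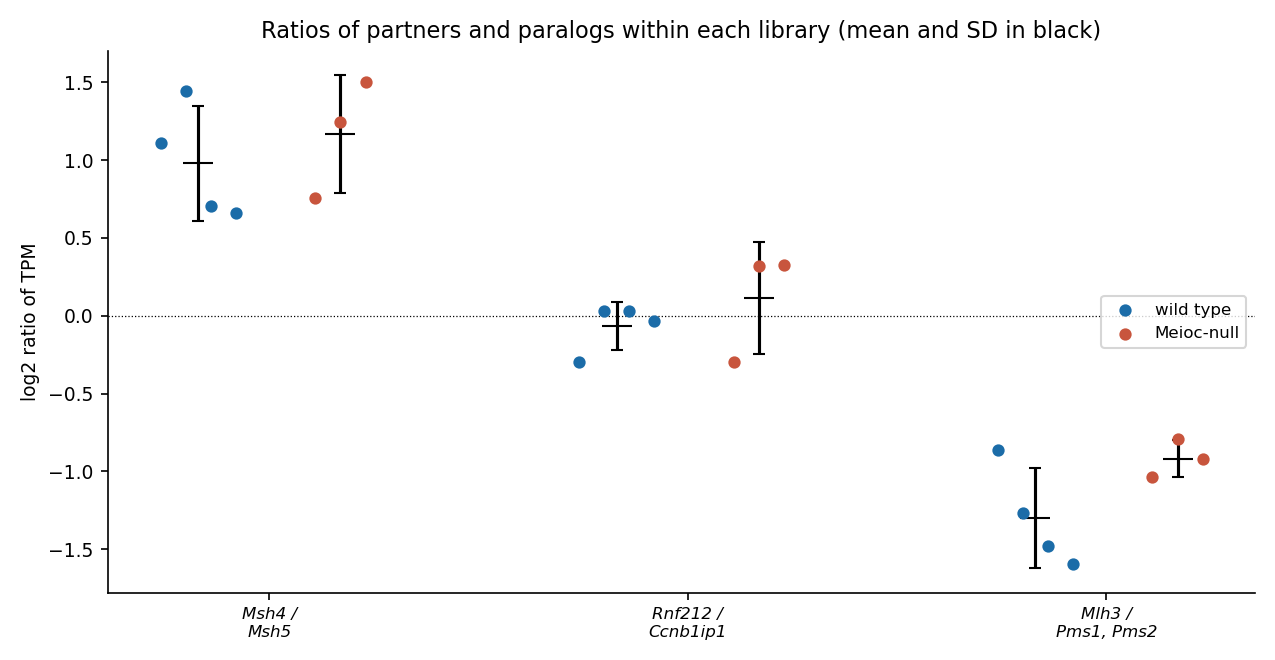
Log2 ratios of TPM within each library for 3 pairs or sets of genes, with wild type in blue, *Meioc*-null in red, and the mean and SD of each group in black. The groups overlap for all 3, and for *Mlh3* over *Pms1* and *Pms2* only wild-type replicate 1, at a ratio of 0.5505, lies among the null libraries.

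Of 7 other pro-crossover factors, 5 were found by name in the tables and tested, and *Spo16* and *Redic1* matched no gene name. Called higher in wild type was 1 of the 5, against 7.77% of all tested genes, none was called lower, and the median log2 fold change was 0.26. *Shoc1*, a ZMM protein related to nucleases and listed under its older name, was counted at 33.6, 61.9, 68.7 and 73.9 CPM in wild type against 28.9, 28.3 and 30.3 CPM in the null (log2 fold change 1.03 ± 0.23 SE, adjusted p = 0.0228, edgeR). As for *Hfm1*, the null libraries were nearly level and wild-type replicate 1 was the lowest of its group, here just above them. The least changed was *Cdk2*, the kinase found at crossover sites, which had means of 118 ± 8.15 CPM (SD, n = 4) in wild type and 108 ± 11.2 CPM (SD, n = 3). Its log2 fold change was 0.14.

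Post-replicative mismatch repair uses relatives of these proteins in all dividing cells, with MutS proteins such as MSH3 and MSH6 for recognition and MutL proteins such as PMS2 for the cut. Of 6 of its genes, 2 were called higher in wild type, against 7.77% of all tested genes, none lower, and the median log2 fold change was 0.16. The called genes were *Pms2* (log2 fold change 0.65, standard error 0.13, adjusted p = 0.0185) and *Pcna* (0.94, standard error 0.18, adjusted p = 0.0175, both by edgeR). *Pcna* encodes the sliding clamp of DNA replication, so it serves S phase as well as repair. *Pms2* was counted at 55.8, 75.7, 81.8 and 79.8 CPM in wild type against 50.1, 46.2 and 44.1 CPM in the null, with wild-type replicate 1 nearest to the null. The recognition genes were not called: *Msh3* and *Msh6* had log2 fold changes of 0.05 and 0.05. *Msh3* was the least changed of the list, with means of 83.4 ± 4.595 CPM (SD, n = 4) in wild type and 80.6 ± 7.24 CPM (SD, n = 3) in the null.

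The third list holds nucleases and helicases that cut or dissolve joint molecules outside the MutLγ route. Of 15 tested, 2 were called higher in wild type, none lower, and the median log2 fold change was 0.08. Over all tested genes edgeR called 7.77% higher and 3.33% lower. With lists this short, the counts of all 3 are given as a description. *Brip1*, a helicase that works with BRCA1, was the most changed, at 79.1, 139, 149 and 156 CPM in wild type against 68.2, 61.5 and 69.5 CPM in the null (log2 fold change 0.98 ± 0.20 SE, adjusted p = 0.0202, edgeR). *Mus81*, the catalytic subunit of the alternative crossover nuclease, had a log2 fold change of 0.47 ± 0.13 (SE; adjusted p = 0.0491, edgeR). Its wild-type libraries, at 21.4 to 26.4 CPM, lay above the null libraries at 15.4 to 20.1 CPM. *Eme1*, which pairs with MUS81, had the lowest value of the list at -0.19, and *Rtel1* was the least changed at 0.02. With an unadjusted p under 0.05, 3 of the 5 pro-crossover factors, 3 of the 6 mismatch repair genes and 5 of the 15 in this list were higher in wild type and 0 lower, against 17.4% of all tested genes higher and 12.9% lower. DESeq2 called 2, 3 and 3 of these lists higher and 0 lower, against 10.7% and 6.42% of all genes. The calls of these lists depended on which libraries were in the fit: leaving out replicate 2 or replicate 3 of either group left none of the 3 lists with a call, while without wild-type replicate 1 there were 3, 3 and 2.

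**Figure D4:**
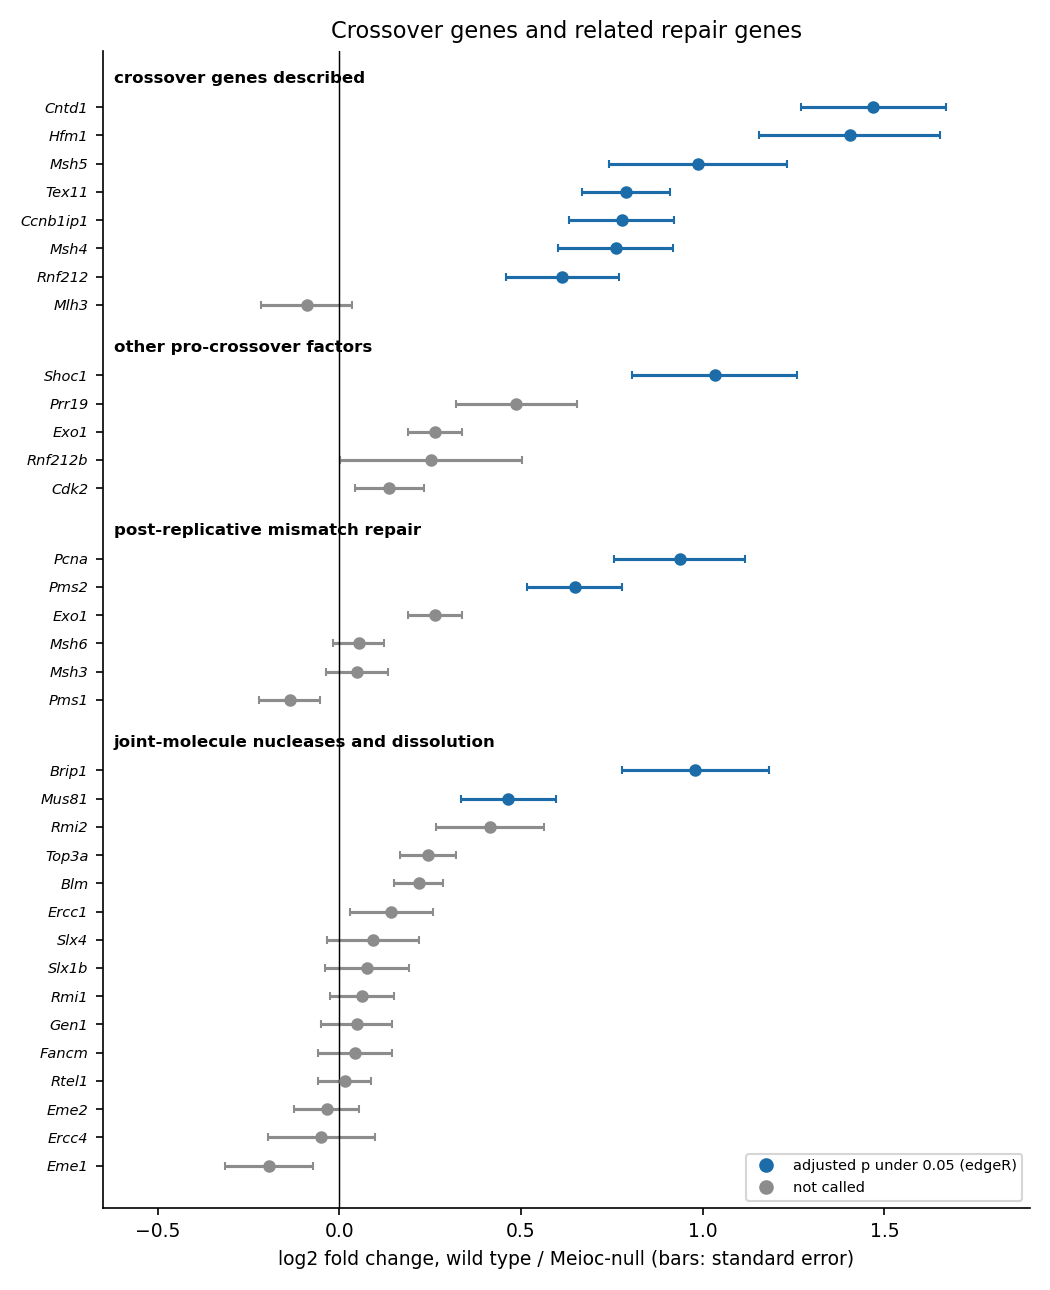
Log2 fold change (wild type over *Meioc*-null, with its standard error) of the 8 crossover genes and of 3 related lists, in blue where edgeR's adjusted p is under 0.05 and in gray otherwise. In blue are 7 of 8 crossover genes, 1 of 5 other pro-crossover factors, 2 of 6 mismatch repair genes and 2 of 15 nuclease and dissolution genes, and *Exo1* appears in 2 lists.

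Kallisto divides the reads of a gene between its transcripts by estimation, and 6 of the 8 genes had at least 2 transcripts with counts. The share of the leading transcript overlapped between the groups in all 6, with exact permutation p-values that were all 0.743 after adjustment over the 6 genes. The most uneven was *Tex11*, whose leading transcript *Tex11*-201 took 93.6%, 92.5%, 85.5% and 89.9% of the gene's counts in wild type. In the null it took 51.5%, 0.689% and 99.1%. Wild-type libraries were thus alike and the 3 null libraries had no common value, while the total for the gene was 131 to 161 TPM in all 3. In the GENCODE vM21 sequences, every one of the 3220 words of 31 bases in *Tex11*-201 is also in *Tex11*-203, and 28 words of *Tex11*-203 are its own. Few reads can separate these transcripts, so their split is uncertain and the sum over the gene is the value to read.

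**Figure D5:**
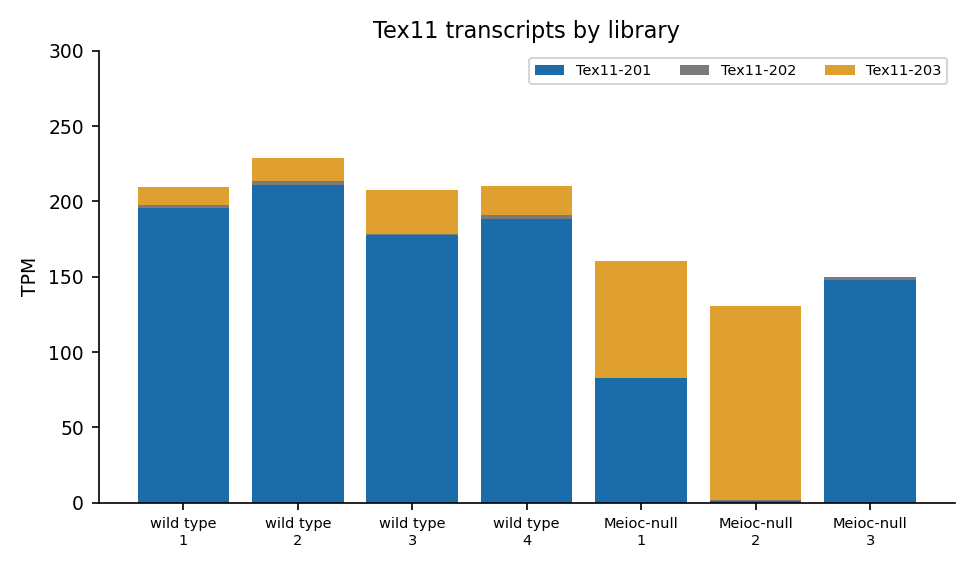
TPM of the 3 *Tex11* transcripts in each library, stacked to the gene's total. The totals are 208 to 229 TPM in wild type and 131 to 161 TPM in *Meioc*-null, while the split between *Tex11*-201 and *Tex11*-203 differs between the null libraries from nearly all of one to nearly all of the other.

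The cell make-up of the testes was read from marker genes beside these results. Of 7 early meiotic markers, *Gm4969* (now named *Meiosin*), *Sycp3*, *Dmc1*, *Prdm9* and *Hormad1* were called higher in wild type, 5 in all, and the list's summed level was 778 to 1622 CPM in wild type and 397 to 563 CPM in the null. *Stra8* (log2 fold change 1.14, adjusted p = 0.0948) and *Rec8* (0.23, adjusted p = 0.481, both by edgeR) were not called, and their groups overlapped. *Stra8* gave 126 to 411 CPM of that sum in wild type and 77.3 to 158 CPM in the null. Of 7 markers of undifferentiated spermatogonia, 6 were tested, and *Zbtb16* and *Lin28a* were called lower in wild type, against 3.33% of all tested genes. The other 4 tested were not called, and their groups overlapped. Their log2 fold changes were -0.54 for *Ret*, -0.47 for *Etv5*, -0.14 for *Gfra1* and 0.15 for *Id4*. DESeq2 called 4 of the 6 lower, against 6.42% of all genes. The summed level of that list was 183 to 210 CPM in wild type and 260 to 388 CPM in the null, and *Eomes* was near 0. *Zbtb16* gave 60.5 to 68.7 CPM of that sum in wild type and 84.9 to 161 CPM in the null. *Lin28a* gave 60.1 to 74.3 CPM in wild type and 99.2 to 128 CPM in the null. Of 7 markers of all germ cells, *Dazl* and *Mael* were called higher and none lower, with a sum of 1943 to 2096 CPM in wild type and 1551 to 1593 CPM in the null. For *Ddx4*, a general germ cell marker among them, the log2 fold change of 0.24 did not pass the test (adjusted p = 0.0813, edgeR). *Dnd1*, another of the 7, had the opposite sign at -0.76 (adjusted p = 0.0571, edgeR), with no overlap between the groups, and *Tdrd1* had -0.24. With an unadjusted p under 0.05, 3 of the 7 were higher and 2 lower, and DESeq2 called 2 higher and 1 lower. *Dazl*, which encodes an RNA-binding protein, gave 41.3% to 57.4% of the list's sum, and without it the sums overlapped, at 875 to 970 CPM in wild type and 768 to 913 CPM in the null. The 5 called early meiotic markers, and in the germ cell list *Dazl* and *Mael*, thus moved with the crossover genes, and their part in the differences was not tested. Scaling to the germ cell list used the geometric mean of its 7 genes, so *Dnd1* weighed as much as *Dazl*, unlike in the sum. It moved the median log2 fold change of all genes from -0.01 to -0.07. The scaled values are thus not corrected for the difference in the sum. With libraries scaled to the germ cell list, 5 of the 8 crossover genes were called higher, and the log2 fold changes were 0.71 for *Msh4*, 0.94 for *Msh5*, -0.16 for *Mlh3*, 0.55 for *Rnf212*, 1.36 for *Hfm1*, 0.72 for *Tex11*, 0.71 for *Ccnb1ip1* and 1.41 for *Cntd1*. *Msh5* (adjusted p = 0.0517 by edgeR) and *Rnf212* (0.0947) were the 2 that lost the call.

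Pachytene and later markers were nearly absent, except for *Piwil1*. The list starts at pachytene, so it does not describe zygotene, where these proteins also act. Of 8 listed, *Prm1* had 0 counts in all libraries, and *Ldhc*, *Pgk2*, *Acr*, *Tnp1*, *Adam2* and *Spag6* stayed under 0.5 CPM. *Piwil1* had 2.32 to 4.27 CPM in wild type and 4.30 to 6.88 CPM in the null. It was thus higher in the null without overlap, opposite to the called crossover genes, but was not called (log2 fold change -0.70, adjusted p = 0.106, edgeR). It had 42 to 95 counts a library. Of 5 differentiating spermatogonia markers, *Kit* and *Rhox13* were called higher in wild type. None of the 7 Sertoli, 5 Leydig, 4 peritubular myoid, 3 endothelial and 5 macrophage markers was called in either direction by edgeR, where 4 of these 24 had an unadjusted p under 0.05, all lower in wild type (12.9% of all genes), and DESeq2 called 1 lower, the Leydig gene *Hsd3b1*. The summed Leydig markers varied from 246 to 605 CPM between libraries.

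The genes whose profile over the 7 libraries was most like the mean of the crossover genes, among the 10239 other tested genes averaging at least 10 CPM, were *Gm4969* (Pearson r = 0.999), *Mei1* (0.999), *Stag3* (0.998), *Majin* (0.995) and *Pdpk1* (0.995). These correlations over 7 libraries include the difference between the groups and are given as a description. Set against the mean of the other 7 members, the profile of *Cntd1* was the closest (r = 0.98) and that of *Mlh3* ran the other way (r = -0.52), with the other members between 0.81 and 0.94.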

How the data were processed

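RNA from the preleptotene-enriched testes of 7 pups, 4 wild-type and 3 *Meioc*-null, was sequenced after ribosomal RNA depletion. The authors trimmed reads with cutadapt 1.8 and ran kallisto 0.44.0, with strand and bias correction, on GENCODE Basic vM15. They deposited estimated counts, without normalization between libraries, and TPM for each protein-coding transcript. TPM sums to a fixed total, so a rise of abundant transcripts lowers all others.

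Of 43139 transcripts, 43020 were matched to 21928 genes of GENCODE vM21; the 119 others, with 0.247% to 0.282% of a library's counts, were left out. Counts and TPM were summed by gene, and counts were rounded. Genes that reached 1 TPM in 3 or more libraries were tested with edgeR 4.0.16 (TMM, quasi-likelihood, no covariates) in R 4.3.3. Each standard error beside a log2 fold change of edgeR was derived from the test. It is the absolute log2 fold change over the square root of the F statistic. Alternatives used DESeq2 1.42.0 and limma 3.58.1, other scalings and filters, a replicate block and leaving out each library. Ratios and transcript shares were tested by exact permutation over libraries with scipy 1.17.1.

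The 8 genes and all lists were chosen with earlier results of these data known. Named are those genes, the called, most and least changed genes of the 3 lists, the 5 most similar genes, *Meioc*, *Ddx4* and markers at or near 0. Other genes enter through ratios, or as called or opposite markers, early meiotic and undifferentiated spermatogonia markers not called, and genes with 1 library apart. Those markers and genes were named after their values were seen. On simulated data with 200 of 13630 genes changed 2-fold, edgeR recovered 167, with 12 false calls. The simulated data had as many rises as falls and no library apart. They do not test how the real calls depend on single libraries. All 7 count as samples of 1 pup each, as the study's methods state. No 2 libraries were as alike as counting noise allows, which by itself does not show separate pups. Samples were grouped by the genotype in their labels. Same-numbered libraries did not deviate together (Pearson r -0.012, -0.089 and -0.168), and the labels name no pairing, so they were not treated as pairs. With so few libraries, these correlations cannot show whether any shared a litter or batch. Other data of the study, and the spike-in RNA, were not analysed here, and a few genes and the ratios that use them are not reported here.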

Additional observations from a re-analysis of the deposited data

Results flagged for a closer look

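The gap between 1 wild-type library and the other 3 was larger than Dixon's 95% critical value for 4 samples in 4 of the 42 values tested, where chance flags about 1 in 20. Wild-type replicate 1 was the library apart in 3 of them. It was high for *Rnf212b*, a relative of *Rnf212*, at 13.8 CPM against 7.23 to 7.97 CPM in the others (gap over range 0.887). It was also high for *Ercc4*, a nuclease subunit, at 16.0 CPM against 11.6 to 11.9 CPM (0.924). It was low for *Pcna*, the replication clamp, at 126 CPM against 188 to 193 CPM (0.921). For *Mlh3*, wild-type replicate 2 stood apart in the share of the leading transcript, at 60.2% against 88.9% to 94.6% (0.835), because transcript *Mlh3*-202 was counted there at 3.56 TPM and at or near 0 in all other libraries. *Mlh3*-201 holds 98.7% of its words of 31 bases in common with *Mlh3*-202, so kallisto's split between them is uncertain.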

How the results depend on the processing

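Under 16 alternatives no log2 fold change of the 8 crossover genes changed sign, and of 128 fits of single genes 96 kept the side of the threshold and 32 lost a call. Of the 8, 7 were called higher with DESeq2, RLE, library size alone and either filter, 5 with scaling to germ cell markers, 4 with limma on log2(TPM + 1) or log2(TPM + 0.1), and 2 (*Hfm1* and *Cntd1*) with a replicate block. With single libraries left out the number ranged from 2, when *Meioc*-null replicate 3 was dropped, to 7, when wild-type replicate 1 was. Over all genes, calls higher in wild type numbered 361 with germ cell scaling, 440 and 443 with limma at the pseudocounts 1 and 0.1, and 94 with the replicate block. Calls lower in wild type numbered 875 with DESeq2, 904 with library size alone, 2082 and 2063 with limma, and 15 with the block. Leaving out libraries gave 113 to 1440 higher and 18 to 837 lower.

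Among the other pro-crossover factors, 2 genes were called higher with DESeq2 and 0 with the block, and leaving out libraries gave 0 to 3. For mismatch repair, 1 was called higher with germ cell scaling, 0 with the block and 0 to 3 without single libraries, and 1, *Pms1*, was called lower with either limma fit. For nucleases, 1 was called with RLE, library size alone, germ cell scaling, either limma fit or either filter, 0 with the block and 0 to 2 without single libraries. The causes were not tested. No difference in a ratio changed sign, but sizes moved. With single libraries left out the log2 differences were -0.39 to -0.02 for *Msh4* over *Msh5* and -0.39 to -0.08 for *Rnf212* over *Ccnb1ip1*. For *Mlh3* over *Pms1* and *Pms2* they were -0.53 to -0.28. The replicate block gave -0.08, -0.19 and -0.28. For ratios these are the values without wild-type replicate 4, so the block adds no separate check. The difference in the leading transcript's share changed sign without single libraries for *Msh4* (-5.94 to 0.477 percentage points), *Msh5* (-1.97 to 10.1, and -1.90 and -0.878 without wild-type replicate 3 and *Meioc*-null replicate 3), *Rnf212* (-2.90 to 8.68) and *Hfm1* (-1.46 to 10.9).

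The labels give same-numbered libraries nothing in common but a number, so whether the block follows the design is not known. Depth limits *Msh5*, *Cntd1* and *Rnf212* most, which had as few as 68, 69 and 75 counts in a library. Counting errors do not cover PCR copies, since reads carried no molecular identifiers.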
